A study of Homo sapiens with 9 samples.

Results

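The transcripts of 33 genes of glycolysis and of the pentose phosphate pathway were examined in HEK293T cells, a human embryonic kidney line, after transfection with empty vector or with human PRM1 or PRM2 fused to EGFP. The genes were chosen by their place in the pathways, and all 33 were found among the 57338 genes measured. Cells were taken 3 days after transfection, sorted for high EGFP, and their total RNA was made into libraries with a kit that reads the 3′ ends of mRNA. Each group (empty vector, hPRM1 and hPRM2) had 3 libraries, numbered 1 to 3, and no source used here says whether the numbers stand for separate transfections, so the p-values measure the spread between libraries, which may be technical. The authors describe all 9 libraries as coming from 1 cell line with transient transfection. The protamines, proteins that pack DNA in sperm, are not native to that line. The marker genes of the libraries labelled hPRM1, given below, differ from those of the other libraries.

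Glycolysis turns glucose into pyruvate in the cytosol. Glucose enters through transporters of the GLUT family, is trapped by hexokinases, is committed by phosphofructokinase, and is split and oxidised by a chain of enzymes that are among the most abundant mRNAs of growing cells. Lactate dehydrogenase then turns pyruvate into lactate, which leaves through monocarboxylate transporters. The pentose phosphate pathway branches off after hexokinase to give NADPH and ribose, and its transketolase and transaldolase return the sugars to glycolysis. Several steps have isoforms that differ between tissues: HK1 and HK2 are widely used and HK3 is known from white blood cells, PFKM is the muscle type of phosphofructokinase, and MCT4, encoded by SLC16A3, is the lactate exporter of highly glycolytic cells.

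Values are RPKM, a gene's reads scaled to the library total and to gene length, as the authors deposited them. The reads on genes, estimated from the steps between low values, came to 7810000 to 10650000 per library for the empty vector, 4140000 to 5790000 for the libraries labelled hPRM1 and 1250000 to 2680000 for hPRM2. The authors report larger mean numbers of reads obtained for each group, with hPRM2 above hPRM1, the reverse of the order estimated here. The reason for this difference was not tested. PRM2 ran from 36130.2 to 71224 RPKM in the 3 hPRM2 libraries and was listed at 0 in the other 6, whereas PRM1 was listed at 0 in all 9, including those labelled hPRM1. These 3 are therefore called the libraries labelled hPRM1. Their erythroid marker genes, among them the haemoglobin genes, summed to 2060256 to 2266431 RPKM, against 3.09 to 18.2 with the empty vector and 2.16 to 16.3 with hPRM2, and 8 of the 10 were at 1 RPKM or more in each of the 3. The 10 neutrophil and monocyte markers summed to 3830 to 5044 RPKM there (40.1 to 41.3 with the empty vector, 16.0 to 49.0 with hPRM2), the 10 lymphocyte markers to 704 to 979 (at most 1.02 and 0.406) and the 6 platelet markers to 336 to 595 (16.9 to 32.1 and 8.61 to 13.98). The 8 HEK293T markers summed to 0.785 to 3.27 RPKM in the libraries labelled hPRM1. Their sums were 177 to 222 with the empty vector and 213 to 303 with hPRM2. KRT8 made up most of the hPRM2 sums, at 140, 235 and 162 RPKM, against 20.8, 15.8 and 27.5 with the empty vector. The means of LIN28B, IGF2BP1, IGF2BP3, KRT18 and NEFM were lower with hPRM2 than with the empty vector, and those of PEG10 and CCND1 were close. LIN28B, IGF2BP1 and NEFM had 0 RPKM in each of the 3 libraries labelled hPRM1. The part of these other cells' transcripts in the results below was not tested. The library names of these 3 also follow a number run of their own, so that library series and condition cannot be told apart, and in bulk RNA fewer cells of a type and less RNA per cell cannot be told apart.

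The abundant enzymes of glycolysis and transaldolase marked the contrast between the groups. With the empty vector, the 33 genes summed to 8480 ± 722 RPKM (SD, n = 3), and LDHB made up 27.5% of that sum, GAPDH 25.5%, ENO1 11.9%, TALDO1 9.44% and TPI1 6.96%. With hPRM2 the sum was 7897 ± 1327 RPKM, with LDHB at 32.5%, GAPDH at 28.0% and TALDO1 at 1.17%. In the libraries labelled hPRM1 the sum was 2867 ± 397 RPKM, of which TALDO1 made up 51.9% and SLC2A3 17.6%, while LDHB made up 1.67%. These shares do not change when all values of a library are multiplied by 1 factor, but a scaling of another kind can change them. They also depend on the gene lengths used for RPKM, since 3′ libraries give about 1 fragment per transcript whatever its length.

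For tests, limma was fitted on log2(RPKM + 1) over all genes with at least 1 RPKM in at least 3 of the 6 libraries compared, and a gene was called when the adjusted p was 0.05 or less and the change reached 2-fold. In the libraries labelled hPRM1, 28 members were tested against the empty vector, of which 19 were called lower and 4 higher (SLC2A3, HK3, PFKFB4 and SLC16A3). HK3 and SLC16A3 passed the filter only through the libraries labelled hPRM1, and PFKM and RPE only through the empty vector, so these 4 had to differ once they passed and their calls are a description. Over all 13588 genes tested, 62.5% were called lower and 12.9% higher, so the members' counts lay near the background. The groups did not overlap for 26 of the 28 members, against 80.8% of all genes. The median log2 fold change was -1.85 over the members tested and -1.72 over all genes. Of the remaining 5 members, SLC2A14, GPI, PFKFB2, PGK1 and PKLR, none reached the level needed for a test.

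The direction of many of these calls depended on the scaling of the libraries. After median-of-ratios rescaling, which sets the typical gene rather than the total equal, the median over all genes moved to 0.34 and that over the 29 members tested to 0.66, and 6 members were called lower and 11 higher (background 23.6% and 35.5%). After quantile normalization 10 were called lower and 8 higher (33.7% and 27.7%). Lower under all 3 scalings were TPI1, LDHA, LDHB and SLC16A1, and higher under all 3 were SLC2A3 and PFKFB4. The 4 members that passed the filter through a single group also kept their direction, PFKM and RPE lower and HK3 and SLC16A3 higher. PFKP, GAPDH, PGAM1 and ENO1 were called lower under the deposited and the quantile scaling only, and HK2, PFKL, PFKFB3, ALDOA, BPGM, PKM and PGLS under the deposited scaling only. HK1 and RPIA were lower as deposited and higher after median-of-ratios rescaling, and SLC2A1, PGD, TKT and TALDO1 were called higher under both rescalings but not as deposited.

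**Figure D1:**
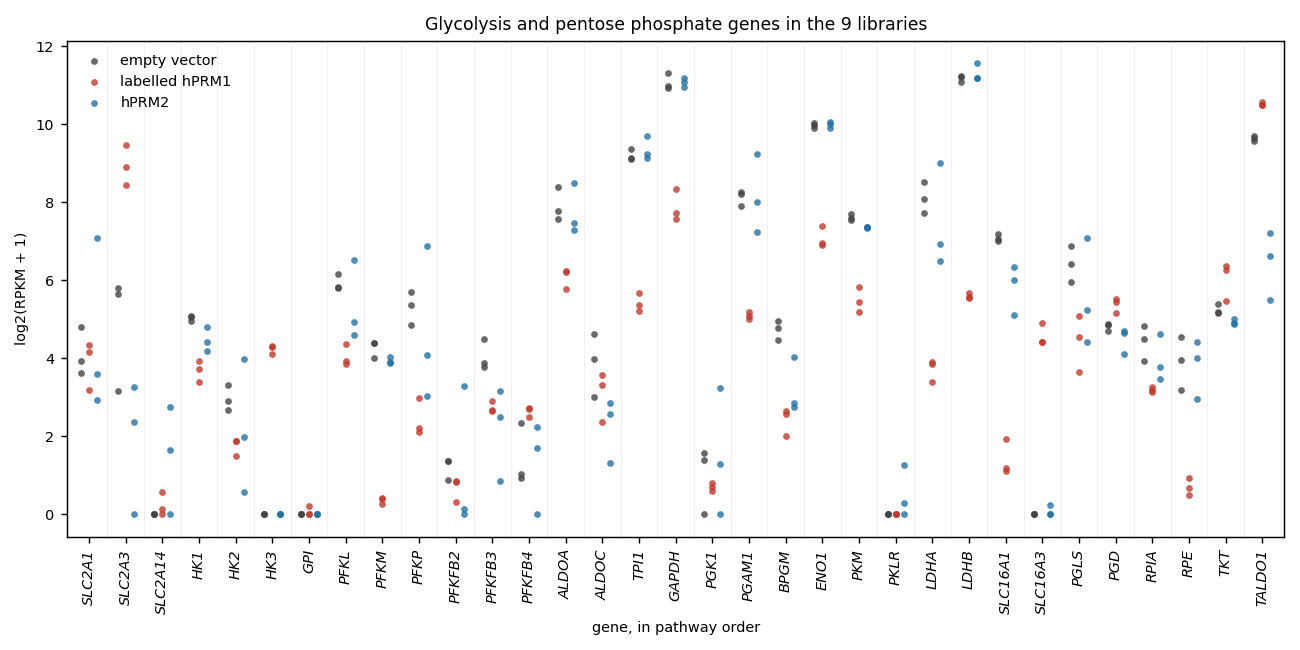
Level of each of the 33 genes, in pathway order, as log2(RPKM + 1) in the 9 libraries, with 1 point per library and 1 colour per group. GAPDH, LDHB and ENO1 sit highest with the empty vector and hPRM2 and lower in the libraries labelled hPRM1, and TALDO1 separates all 3 groups.

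Of the genes whose order differed most between the groups, 4 stand for the patterns described below, and their promoters are given from RefSeq (GRCh38.p14), 250 bases before to 50 bases after the start of transcription. HK3 and SLC16A3 were listed at 0 with the empty vector and measured in the libraries labelled hPRM1, LDHA fell there, and TALDO1 differed in opposite directions with the 2 labels. Capitals mark the letters ACGTG or GCGTG, the core of the hypoxia response element that many glycolytic genes are known for, and GAGGAA, the core bound by the myeloid and lymphoid factor PU.1, each searched on both strands.
HK3, chr5:176899297-176899596, minus strand: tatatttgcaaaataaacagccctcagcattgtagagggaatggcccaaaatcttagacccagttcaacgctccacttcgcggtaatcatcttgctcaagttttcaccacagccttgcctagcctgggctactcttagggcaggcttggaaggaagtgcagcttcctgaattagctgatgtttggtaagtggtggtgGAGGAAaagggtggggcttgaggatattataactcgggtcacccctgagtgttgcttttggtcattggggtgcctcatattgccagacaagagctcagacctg
SLC16A3, chr17:82228792-82229091, plus strand: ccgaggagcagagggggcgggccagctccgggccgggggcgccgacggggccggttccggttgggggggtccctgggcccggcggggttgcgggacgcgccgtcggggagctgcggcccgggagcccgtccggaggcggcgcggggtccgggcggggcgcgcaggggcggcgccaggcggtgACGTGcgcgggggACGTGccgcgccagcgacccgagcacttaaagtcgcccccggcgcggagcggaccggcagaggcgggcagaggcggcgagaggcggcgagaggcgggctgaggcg
LDHA, chr11:18394313-18394612, plus strand: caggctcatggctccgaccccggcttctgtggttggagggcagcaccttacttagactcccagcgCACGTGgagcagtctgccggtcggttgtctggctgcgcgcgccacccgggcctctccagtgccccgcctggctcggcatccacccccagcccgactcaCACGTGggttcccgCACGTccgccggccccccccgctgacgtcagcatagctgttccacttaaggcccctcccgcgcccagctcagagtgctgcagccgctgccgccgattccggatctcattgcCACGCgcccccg
TALDO1, chr11:747214-747513, plus strand: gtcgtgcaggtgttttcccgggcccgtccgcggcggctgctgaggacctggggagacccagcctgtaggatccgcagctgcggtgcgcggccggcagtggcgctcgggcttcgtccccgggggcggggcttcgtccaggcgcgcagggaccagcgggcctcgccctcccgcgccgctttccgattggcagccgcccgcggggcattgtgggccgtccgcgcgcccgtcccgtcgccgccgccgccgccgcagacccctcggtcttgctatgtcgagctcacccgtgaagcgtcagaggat
The LDHA window, 1 of 2 for the gene, held 5 matches of ACGTG and 1 of GCGTG, where a palindromic CACGTG counts once on each strand, and the other window held 0 and 1. The SLC16A3 window, 1 of 5 that RefSeq starts give for the gene, held 2 matches of ACGTG, and the others held 0. Of those others, 1 held 3 matches of GCGTG and 1 of GAGGAA. The HK3 window held 1 of GAGGAA, and the TALDO1 window held none of the 3 motifs. The window of LDHB, which fell further than LDHA, held 0 of ACGTG and 1 of GCGTG. A link between motif and level was not tested. Over all 35093 windows of this length, 21.4% held ACGTG, 36.5% GCGTG and 27.9% GAGGAA. Of the 56 windows of the 30 members with an entry, 20 held ACGTG, 21 GCGTG and 21 GAGGAA. SLC2A3, PFKFB2 and SLC16A1 had no entry.

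Among the glucose transporters, SLC2A3 (GLUT3), a transporter with high affinity known from neurons and white blood cells, was measured at 48.9, 54.2 and 7.84 RPKM in empty vector libraries 1, 2 and 3, at 345, 714 and 481 RPKM in those labelled hPRM1 and at 0, 8.65 and 4.12 RPKM with hPRM2. The 3 libraries labelled hPRM1 lay above all others, and empty vector library 3 lay near the hPRM2 libraries. The log2 fold change of the libraries labelled hPRM1 against the empty vector was 4.09 ± 0.73 (SE, limma adjusted p = 0.0018), and leaving out 1 library at a time gave 3.23 to 4.55. SLC2A1 (GLUT1), the transporter of most dividing cells, was measured at 14.2, 11.2 and 26.6 RPKM with the empty vector, at 19.4, 16.8 and 8.07 RPKM in the libraries labelled hPRM1 and at 135, 6.58 and 11.0 RPKM with hPRM2. Its groups overlapped (log2 fold change -0.21 ± 0.43, limma adjusted p = 0.66), although after median-of-ratios rescaling it was called higher in the libraries labelled hPRM1 (2.13). SLC2A14, a near copy of SLC2A3 that lies beside it on chromosome 12, was listed at 0 with the empty vector and reached 2.12 and 5.65 RPKM in hPRM2 libraries 2 and 3, and reads could be split between the pair. As a share of the summed RPKM of the 3 transporters, SLC2A3 took 94.6% to 98.4% in the libraries labelled hPRM1, 22.7% to 82.9% with the empty vector and 0% to 49.9% with hPRM2.

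The hexokinases, which phosphorylate glucose on entry, differed in isoform between the libraries labelled hPRM1 and the others. HK3 (chr5:176880869-176899332, GRCh38) was listed at 0 in the 3 empty vector and the 3 hPRM2 libraries and was measured at 18.6, 18.7 and 16.3 RPKM in those labelled hPRM1. It passed the filter on low values through these 3 libraries alone and no fold is given against a group listed at 0. HK1, the common housekeeping isoform, was measured at 32.2, 30.2 and 32.7 RPKM with the empty vector, at 12.3, 14.1 and 9.39 RPKM in the libraries labelled hPRM1 and at 27.0, 20.5 and 17.2 RPKM with hPRM2. The 3 groups followed each other without overlap, but HK1 gave -1.35 ± 0.21 under the label hPRM1 as deposited (log2 fold change, limma adjusted p = 0.00093) and turned to 1.03 after median-of-ratios rescaling. HK2, the inducible isoform of growing cells, stood at 8.86, 5.33 and 6.44 RPKM with the empty vector and at 2.65, 2.65 and 1.79 RPKM in the libraries labelled hPRM1. Within the summed hexokinases, HK3 took 55.5%, 52.8% and 59.3% in the 3 libraries labelled hPRM1, HK1 36.6%, 39.8% and 34.2%, and HK2 the rest. With the empty vector HK1 took 82.3% ± 3.5 and HK2 17.7% ± 3.5 (SD, n = 3), and the shares of all 3 isoforms did not overlap between these groups (exact permutation test, two-sided p = 0.1 for each, the smallest that 3 against 3 libraries can give, adjusted p = 0.14 over 22 shares). With HK3 listed at 0 in the empty vector libraries, its share had to differ, and a higher HK3 share lowers the other shares. These 3 tests are therefore not independent and are a description. Summed over the 3 isoforms, the level was 38.5 ± 2.8 RPKM with the empty vector, 32.2 ± 4.2 in the libraries labelled hPRM1 and 27.6 ± 12 with hPRM2.

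For phosphofructokinase, the committing step, the liver type had a higher share in the libraries labelled hPRM1 than with the empty vector. The muscle and platelet types had lower shares. PFKM was measured at 19.9, 20.1 and 15.1 RPKM with the empty vector, at 0.303, 0.336 and 0.203 RPKM in the libraries labelled hPRM1 and at 15.3, 13.9 and 13.6 RPKM with hPRM2. It passed the filter only through the groups where it is high, and its log2 fold change under the label hPRM1, -3.91 ± 0.21 (SE) and -2.46 rescaled, is given as a description. Exons of PFKM overlap SENP1 on the opposite strand, which stood at 54.6 to 131 RPKM with the empty vector and 0.518 to 5.89 RPKM in the libraries labelled hPRM1, and whether the counting used strand is not given in the sources used here. PFKL, the liver type, was measured at 55.5, 54.4 and 70.4 RPKM with the empty vector and at 13.5, 19.6 and 14.1 RPKM in the libraries labelled hPRM1. PFKP, the platelet type, was measured at 40.2, 28.0 and 51.1 RPKM and at 3.62, 6.84 and 3.26 RPKM in the same groups. Both were lower as deposited without overlap, PFKL by -1.88 ± 0.22 and PFKP by -2.88 ± 0.34 (log2 fold change ± SE), but after median-of-ratios rescaling the values were 0.55 and -0.61 and neither was called. In share of the summed phosphofructokinases, PFKL went from 50.9% ± 2.6 to 77.0% ± 3.5, PFKM from 16.0% ± 4.4 to 1.38% ± 0.31 and PFKP from 33.2% ± 5.2 to 21.6% ± 3.5 (SD, n = 3), with no overlap for any of the 3 (exact permutation test, p = 0.1 each, adjusted p = 0.14). Since PFKM passed the filter here through the empty vector alone, its share had to differ, and the 3 shares sum to the whole. These 3 tests are therefore not independent and are a description.

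The PFKFB enzymes make and remove fructose 2,6-bisphosphate, the activator of phosphofructokinase. PFKFB3, the isoform with the strongest kinase activity, was measured at 12.7, 13.7 and 21.6 RPKM with the empty vector, at 5.28, 6.44 and 5.38 RPKM in the libraries labelled hPRM1 and at 7.91, 0.804 and 4.62 RPKM with hPRM2. All 6 libraries of the protamine labels lay below all 3 of the empty vector. Under the label hPRM1 the log2 fold change was -1.31 ± 0.26 as deposited (limma adjusted p = 0.0029) and 0.96 once rescaled by median of ratios. PFKFB4, known from testis and hypoxic cells, was measured at 4.08, 1.05 and 0.889 RPKM with the empty vector and at 4.60, 5.55 and 5.51 RPKM in the libraries labelled hPRM1. The groups did not overlap and the log2 fold change was 1.20 ± 0.41 (limma adjusted p = 0.031), a call that was lost without any one of the 3 libraries labelled hPRM1 and without empty vector library 2 or 3 (adjusted p = 0.063 to 0.092). PFKFB2, the heart type, stayed at or under 1.59 RPKM in the 6 libraries of these groups and reached 8.82 RPKM in hPRM2 library 2, against 0 and 0.0908 RPKM in hPRM2 libraries 1 and 3. In share, PFKFB4 took 43.1% to 47.2% of the family in the libraries labelled hPRM1 and 3.81% to 22.3% with the empty vector, and PFKFB3 took 46.1% to 52.6% and 69.1% to 92.6% (exact permutation test, p = 0.1 each, adjusted p = 0.14).

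The chain from aldolase to pyruvate kinase held the most abundant mRNAs. GAPDH, which oxidises glyceraldehyde 3-phosphate, was measured at 2030.1, 1941 and 2526 RPKM with the empty vector, at 191, 326 and 211 RPKM in the libraries labelled hPRM1 and at 1995, 2161 and 2316 RPKM with hPRM2. ENO1, the enolase of most tissues, was measured at 1011, 954 and 1053 RPKM, at 119, 165 and 123 RPKM and at 1036, 953 and 1073 RPKM in the same order of groups. The libraries labelled hPRM1 lay apart from all others for both genes, with log2 fold changes of -3.19 ± 0.24 for GAPDH and -2.89 ± 0.17 for ENO1, which were -0.68 and -0.39 after median-of-ratios rescaling and then under the fold threshold. TPI1, which interconverts the 2 triose phosphates, was measured at 561, 550.2 and 662 RPKM with the empty vector and at 40.0, 50.1 and 35.9 RPKM in the libraries labelled hPRM1, with log2 fold changes of -3.79 ± 0.19 as deposited (limma adjusted p = 7e-06) and -1.31 once rescaled by median of ratios, both called. ALDOA, the main aldolase, was measured at 219, 188 and 334 RPKM with the empty vector and at 53.5, 73.5 and 75.0 RPKM in the libraries labelled hPRM1. PGAM1, the phosphoglycerate mutase, was measured at 298, 239.9 and 304 RPKM and at 32.6, 35.2 and 31.4 RPKM. PKM, which forms pyruvate, was measured at 185, 193 and 206 RPKM and at 35.6, 55.8 and 42.7 RPKM. These 3 were lower without overlap as deposited, with log2 fold changes of -1.83, -3.04 and -2.12, and not called after median-of-ratios rescaling (0.66, -0.56 and 0.36).

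The minor isoforms of these steps gave low values. ALDOC, the aldolase known from brain, was measured at 14.7, 7.003 and 23.45 RPKM with the empty vector and at 4.17, 10.8 and 8.90 RPKM in the libraries labelled hPRM1, with overlapping groups, and its share of the aldolases was 3.58% to 6.56% and 7.22% to 12.9%. PKLR, the pyruvate kinase of liver and red cells, was listed at 0 in the 6 libraries of these groups and at 0, 1.40 and 0.222 RPKM with hPRM2, so PKM took 99.1% or more of pyruvate kinase in every library. The table lists genes and not transcripts, so the PKM1 and PKM2 splice forms of PKM were not separated. BPGM, which makes the 2,3-bisphosphoglycerate that lowers the oxygen affinity of haemoglobin, was measured at 30.0, 26.1 and 21.2 RPKM with the empty vector, at 5.22, 3.00 and 4.96 RPKM in the libraries labelled hPRM1 and at 15.3, 5.75 and 6.21 RPKM with hPRM2. Both protamine labels lay below the empty vector without overlap. Under the label hPRM1, BPGM gave -2.32 ± 0.26 as deposited (log2 fold change, limma adjusted p = 0.0002) and -0.06 once rescaled by median of ratios. PGK1, the phosphoglycerate kinase, ran from 0 to 1.95 RPKM in the libraries of these 2 groups, and GPI, the isomerase after hexokinase, was listed at 0 in 8 libraries and at 0.144 RPKM in library 3 labelled hPRM1. Both are enzymes that every glycolytic cell uses, and a listed 0 is read here only as such. Exons of GPI overlap AC092073.1 and exons of PGK1 overlap ATP7A, in both cases on the same strand. How reads shared by overlapping genes were counted is not given in the sources used here, and the part of this in the low values was not tested. Pseudogenes named after members, 62 of them for GAPDH, summed to at most 3.13 RPKM per parent gene and library.

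Lactate dehydrogenase and the lactate transporters differed under all 3 scalings in the libraries labelled hPRM1. LDHB (chr12:21635342-21757857, GRCh38), the heart-type subunit, was measured at 2362, 2189 and 2422 RPKM with the empty vector, at 46.7, 50.02 and 45.3 RPKM in the libraries labelled hPRM1 and at 3030.2, 2330.2 and 2336 RPKM with hPRM2. LDHA, the muscle-type subunit, was measured at 270.5, 210.3 and 364 RPKM, at 13.9, 13.4 and 9.50 RPKM and at 509, 89.4 and 120.5 RPKM in the same order. In the libraries labelled hPRM1, LDHB fell by 5.59 on the log2 scale (SE 0.14, limma adjusted p = 2e-06) and LDHA by 4.40 (SE 0.27, limma adjusted p = 1.5e-05), and both stayed lower after median-of-ratios rescaling, by 3.10 and 1.96. LDHA took 20.5% ± 2.8 of the summed subunits in these libraries and 10.7% ± 2.2 with the empty vector (SD, n = 3), without overlap (exact permutation test, p = 0.1, adjusted p = 0.14). SLC16A1 (MCT1), the common lactate and pyruvate carrier, was measured at 132, 127 and 146 RPKM with the empty vector, at 1.26, 2.79 and 1.15 RPKM in the libraries labelled hPRM1 and at 62.7, 33.5 and 80.3 RPKM with hPRM2. It fell by 5.68 on the log2 scale in the libraries labelled hPRM1 (SE 0.27, limma adjusted p = 7e-06), the largest fall among the members as deposited, and the rescaled value by median of ratios was -3.60. SLC16A3 (MCT4, chr17:82228397-82261129, GRCh38) was listed at 0 in the 3 empty vector libraries, at 20.1, 29.1 and 20.3 RPKM in those labelled hPRM1 and at 0, 0.172 and 0 RPKM with hPRM2. It too passed the filter through the libraries labelled hPRM1 alone, and it overlaps CSNK1D on the opposite strand, which was measured in all 9 libraries (18.2 to 55.6 RPKM). MCT4 thus took 94.1%, 91.3% and 94.6% of the 2 transporters in the libraries labelled hPRM1, and MCT1 took 99.5% or more in the other 6.

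In the pentose phosphate pathway, the libraries labelled hPRM1 held higher values of TALDO1, TKT and PGD as deposited, each under the 2-fold threshold. RPE, RPIA and PGLS were called lower on that scale. TALDO1 (chr11:747329-765024, GRCh38), transaldolase, was measured at 827, 802 and 756 RPKM with the empty vector, at 1443, 1529 and 1448 RPKM in the libraries labelled hPRM1 and at 147, 43.7 and 97.6 RPKM with hPRM2. The 3 groups were apart from each other, with the libraries labelled hPRM1 highest and hPRM2 lowest. TALDO1 was 0.89 ± 0.12 higher on the log2 scale in the libraries labelled hPRM1 (limma adjusted p = 0.00046), which is under the 2-fold threshold, and 3.40 higher once rescaled by median of ratios. TKT, transketolase, was measured at 35.0, 35.2 and 40.7 RPKM with the empty vector, at 43.5, 75.1 and 81.2 RPKM in the libraries labelled hPRM1 and at 28.8, 30.9 and 28.3 RPKM with hPRM2. PGD, a dehydrogenase that forms NADPH, was measured at 28.5, 24.7 and 28.0 RPKM, at 44.5, 42.3 and 34.6 RPKM and at 24.0, 16.3 and 24.7 RPKM. Both stood higher without overlap in the libraries labelled hPRM1 but under the 2-fold threshold (log2 fold changes of 0.78 ± 0.27 and 0.56 ± 0.19, limma adjusted p = 0.033 and 0.029). Both were called higher once rescaled by median of ratios, at 3.24 and 2.99. RPE, which makes xylulose 5-phosphate, was measured at 22.2, 14.4 and 8.02 RPKM with the empty vector and at 0.585, 0.896 and 0.394 RPKM in the libraries labelled hPRM1, with a log2 fold change of -3.20 ± 0.37 (SE) and a rescaled value of -1.53. Like PFKM, RPE passed the filter through the empty vector alone in this comparison. RPIA, the ribose 5-phosphate isomerase, was measured at 27.2, 21.4 and 14.1 RPKM and at 7.68, 8.62 and 8.02 RPKM, with a log2 fold change of -1.22 ± 0.27 as deposited and 1.11 after median-of-ratios rescaling. PGLS, the lactonase, was measured at 61.3, 84.6 and 117 RPKM and at 11.4, 32.6 and 22.5 RPKM, with a log2 fold change of -2.003 ± 0.42 as deposited and 0.44 after median-of-ratios rescaling.

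**Figure D2:**
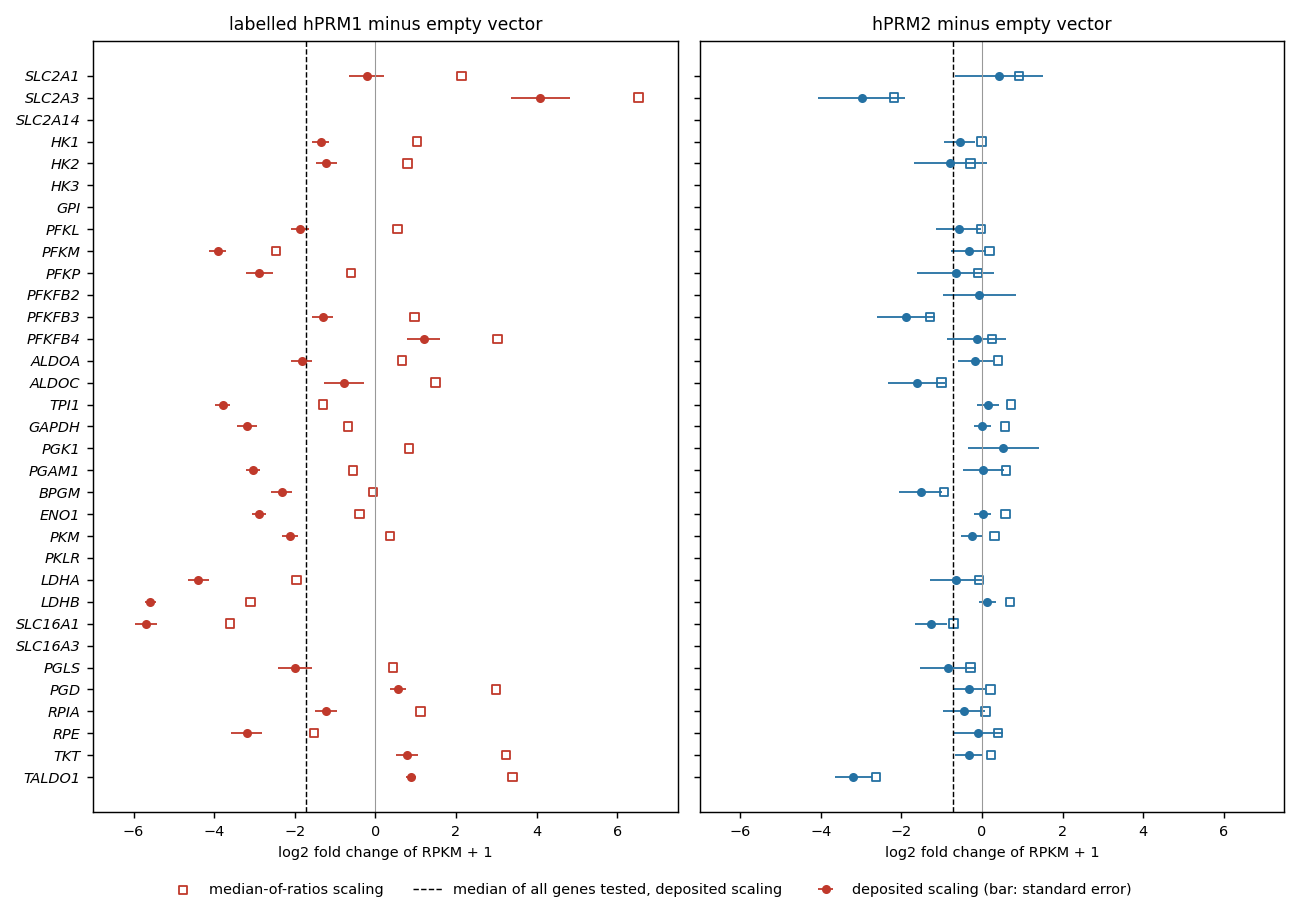
Log2 fold change of RPKM + 1 for each member tested, against the empty vector, in the libraries labelled hPRM1 (left) and in hPRM2 (right), with filled circles and standard errors for the deposited scaling, open squares for median-of-ratios scaling and a dashed line at the median of all genes tested (-1.72 and -0.72). Genes listed at 0 in all 3 empty vector libraries are left blank. On the left the squares lie to the right of the circles throughout, and on the right TALDO1 lies farthest to the left, at -3.20.

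With hPRM2, 1 of the 28 members tested was called lower than with the empty vector and 0 higher, against 1.37% lower and 1.36% higher of all 13126 genes tested by limma. The member was TALDO1, with a log2 fold change of -3.20 ± 0.46 (limma adjusted p = 0.027). It was also the 1 member called after median-of-ratios rescaling (-2.62, background 0.638% lower and 2.13% higher) and after quantile normalization (-3.27, background 1.14% and 2.52%). Each of the 3 hPRM2 libraries lay below each empty vector library. The call was kept without hPRM2 library 1 (adjusted p = 0.0058) and lost on leaving out any other single library, where the log2 fold change stayed between -3.29 and -2.72 and the adjusted p ran from 0.054 to 0.15. At an unadjusted p under 0.05 stood 5 members, TALDO1, SLC16A1 (-1.27 ± 0.40), BPGM (-1.52 ± 0.54), SLC2A3 (-2.98 ± 1.08) and PFKFB3 (-1.88 ± 0.73), all with lower values in hPRM2, with adjusted p of 0.12 to 0.17 for the last 4. Over all genes tested, 3351 or 25.5% stood at an unadjusted p under 0.05. The groups did not overlap for 9 of the 28 members, against 35.9% of all genes, and the median log2 fold change was -0.33 over the members and -0.72 over all genes. In simulated data for this comparison, the fit called 8% of changes of 2 on the log2 scale. A gene not called with hPRM2 is therefore not shown to be unchanged.

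The values of GAPDH, ENO1, LDHB and TPI1 with hPRM2 overlapped those of the empty vector, and the 3 hPRM2 values of PKM lay below all 3 of the empty vector. The log2 fold changes were 0.00 ± 0.21 for GAPDH, 0.02 ± 0.21 for ENO1, 0.13 ± 0.21 for LDHB, 0.15 ± 0.26 for TPI1 and -0.26 ± 0.26 for PKM. These values were 0.57, 0.59, 0.70, 0.72 and 0.31 after median-of-ratios rescaling, and none was called under either scaling. PKM stood at 165, 163 and 160.4 RPKM with hPRM2.

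One of the hPRM2 libraries stood apart from the other two for several members. Library 1 held the highest value of the 3 for 18 of the 31 members with a single highest library. SLC2A1 stood at 135 RPKM there against 6.58 and 11.0 RPKM, PFKP at 117 against 7.19 and 15.8 RPKM, PFKL at 91.1 against 29.2 and 23.1 RPKM, LDHA at 509 against 89.4 and 120.5 RPKM, and PGAM1 at 606 against 149 and 258 RPKM. Without library 1, 7 members were called lower than with the empty vector: TALDO1 (-3.58), PFKFB3 (-2.38), BPGM (-1.93), PFKP (-1.76), PGLS (-1.59), LDHA (-1.39) and PFKL (-1.17). The calls over all genes also rose without that library, to 12.3% lower and 5.3% higher of 12825 genes. After median-of-ratios rescaling without library 1, a setting chosen after seeing the data, TALDO1 alone among the members was called (-2.88, against 2.28% of all genes lower and 7.3% higher).

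Isoform shares with hPRM2 overlapped those of the empty vector except in 1 family. PGAM1 took 97.5%, 96.3% and 97.6% of the summed RPKM of PGAM1 and BPGM with hPRM2 and 90.9%, 90.2% and 93.5% with the empty vector (exact permutation test, p = 0.1, adjusted p = 0.88 over 22 shares). HK1 took 82.6% ± 17 of the hexokinases and PFKL 47.6% ± 9.2 of the phosphofructokinases with hPRM2 (SD, n = 3), close to the means of the empty vector but with a wider spread. SLC2A1 took 100% of the transporters in hPRM2 library 1 and 37.9% and 52.9% in libraries 2 and 3.

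Set against each other, the libraries labelled hPRM1 held 11 members called lower and 5 called higher than the hPRM2 libraries, of 28 tested (background 37% and 16% of 11756 genes). The values of hPRM2 enter this comparison and that with the empty vector. TALDO1 was higher by 4.09 ± 0.45 on the log2 scale (limma adjusted p = 0.00073) and TKT by 1.11 ± 0.34 (limma adjusted p = 0.033), and SLC2A3 was called higher as well, all 3 of them under each scaling. The TKT call was lost without library 2 or 3 of either group (adjusted p = 0.061 to 0.18), where the log2 fold change stayed between 0.94 and 1.14. HK3 and SLC16A3, which passed the filter through the libraries labelled hPRM1 alone, make up the other 2 higher calls. TPI1, LDHA, LDHB and SLC16A1 were lower under all 3 scalings, as were PFKM and RPE, which passed through the hPRM2 libraries alone, with LDHB at -5.72 ± 0.22 and SLC16A1 at -4.42 ± 0.48. ALDOA, PGAM1, ENO1 and PKM were called lower as deposited and not after either rescaling. The counts were 7 lower and 10 higher after median-of-ratios rescaling (background 16.1% and 31.2%) and 6 and 8 after quantile normalization (20.6% and 26.3%), of 31 tested, and as deposited the groups were apart for 23 of the 28 members, against 62% of all genes.

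Of 50 other genes of the pathways and their neighbours, 29 could be tested in the libraries labelled hPRM1 against the empty vector, and 22 were called lower and 1 higher, with a median log2 fold change of -2.23. Over all genes 62.5% were called lower and 12.9% higher, with a median of -1.72. The 4 with the largest falls in the fit were LDHC, MPC2, PGM1 and MPC1. LDHC, the testis-type lactate dehydrogenase, stood at 9.87, 13.5 and 22.5 RPKM with the empty vector and was listed at 0 in the 3 libraries labelled hPRM1, so that it passed the filter through the empty vector alone. MPC2 (-3.83) and MPC1 (-3.58) form the mitochondrial pyruvate carrier, and PGM1 (-3.60, log2 fold change) links glycogen to glycolysis. MPC1 was measured at 97.1, 63.8 and 106.8 RPKM with the empty vector, at 4.401, 5.95 and 9.71 RPKM in the libraries labelled hPRM1 and at 84.2, 7.72 and 51.4 RPKM with hPRM2. TXNIP, which restrains glucose uptake, was the 1 gene called higher, at 56.3, 51.9 and 63.5 RPKM with the empty vector and 466, 579 and 473 RPKM in the libraries labelled hPRM1 (3.12 ± 0.17 on the log2 scale). The calls of MPC2, PGM1, MPC1 and TXNIP held under all 3 scalings, whereas the counts for the list were 8 lower and 8 higher after median-of-ratios rescaling (background 23.6% and 35.5%). LDHC had to be lower once it passed the filter, and its call is a description. The same holds for TIGAR, DLAT, SHPK, RBKS, PDP1 and MLXIPL, which were called lower as deposited and passed through the empty vector alone. With hPRM2, 0 of the 30 tested were called by limma, and 7 stood at an unadjusted p under 0.05, against 25.5% of all genes.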

How the data were processed

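Gene expression was measured in 9 libraries described as HEK293T, 3 each for empty vector, hPRM1 and hPRM2 as labelled. The authors trimmed, aligned and counted the reads with nf-core/rnaseq. The submitters' processing notes name FastQC, cutadapt, STAR, Salmon and build hg38, and versions and annotation are not given in the sources used here. The authors also removed mitochondrial genes and deposited RPKM values, each count scaled by the reads of its library and by gene length. Counts were not used here, and 0 further columns of values were left unused. Of the Ensembl identifiers, 98.6% had a symbol. The depth of each library was worked out from the steps between low RPKM values, with GENCODE 29 lengths less 250 bases, and limits the precision of low values.

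limma 3.58.1 in R 4.3.3 (lmFit, eBayes with trend and robust) was fitted to log2(RPKM + 1) for each pair of groups, with Benjamini-Hochberg adjustment over all genes tested, a minimum of 1 RPKM in 3 libraries, and a call at an adjusted p of at most 0.05 and a 2-fold change. A fold change on this scale understates that of low genes. Isoform shares were tested by exact permutation of the libraries, two-sided. The shares of a family sum to the whole, so the tests within a family are not independent. The fit was tested on simulated data. Replicate numbers were not treated as pairs. Alternatives were other pseudocounts (0.1, 5), no filter or a minimum of 10 RPKM, median-of-ratios and quantile scaling, all 9 libraries in 1 fit, a replicate block, no fold threshold, a per-gene unequal-variance test on RPKM, and leaving out each library.

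The 33 members and the gene lists were chosen with earlier results of these data known. All members are accounted for, and of the 50 other genes the 4 largest rises and 4 largest falls among calls against the empty vector are named. Python 3.11.15 (pandas 2.3.3, numpy 2.4.6), SciPy 1.17.1 and matplotlib 3.10.9 served for the rest.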

Additional observations from a re-analysis of the deposited data

How the results depend on the processing

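In the libraries labelled hPRM1 against the empty vector, the 19 members called lower became 6 after median-of-ratios and 10 after quantile scaling and 11 with the per-gene test on RPKM, and the 4 called higher became 11, 8 and 2, and 7 with no fold threshold. Over all 13588 genes the per-gene test called 27.4% lower and 5.82% higher, and the test with no fold threshold 65.6% and 13.9%. Against hPRM2, 11 lower became 7, 6 and 2, and 5 higher became 10, 8 and 1 (per-gene test over all genes, 0.876% and 0.987%). The 1 member called lower with hPRM2 became 0 with no filter, a replicate block or the per-gene test, and 2 with all 9 libraries in 1 fit, where BPGM was added. Over all genes, the first 3 of these settings called 0.0814%, 0.0609% and 0.0686% lower. The fit with all 9 libraries called 12.3% lower and 3.86% higher. Leaving out 1 library gave 17 to 19 lower and 1 to 4 higher for the libraries labelled hPRM1 against the empty vector, 0 to 7 lower and 0 higher for hPRM2, and 9 to 11 lower and 2 to 5 higher between the protamine labels. The shares of all genes called lower were then 53.3% to 68.6%, 0% to 12.3% and 29% to 42.1% in the same order. Those called higher were 5.37% to 17.3%, 0.0402% to 5.3% and 3.94% to 20.6%. Against the empty vector, without any one library labelled hPRM1, HK3 and SLC16A3 had too few libraries to be tested and PFKFB4 lost its call (adjusted p = 0.063 to 0.084), and TKT was added without library 1 (1.06). The 7 lower calls came without hPRM2 library 1.

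Among members called under at least 1 of the 2 settings compared, signs reversed in the libraries labelled hPRM1 against the empty vector after median-of-ratios scaling for SLC2A1 (2.13), HK1 (1.03), HK2 (0.79), PFKL (0.55), PFKFB3 (0.96), ALDOA (0.66), ALDOC (1.49), PKM (0.36), PGLS (0.44) and RPIA (1.11), and after quantile scaling for SLC2A1 (1.52), HK1 (0.29), HK2 (0.35), PFKFB3 (0.36) and RPIA (0.44). Against hPRM2 they reversed after median-of-ratios scaling for HK1 (1.05), ALDOA (0.26) and PKM (0.0541), and after quantile scaling for ALDOA (0.16). Values called under neither setting changed sign 3 times in the libraries labelled hPRM1 against the empty vector, 16 times against hPRM2 and 49 times for hPRM2 against the empty vector, over all alternatives. The cause was not tested. Without the division by gene length, 6 of 44 differences in isoform share moved by more than their spread, with HK3 at 44.0, HK1 at -32.1, LDHA at 15.4, LDHB at -15.4, SLC16A1 at -84.3 and SLC16A3 at 84.3 percentage points, and 0 changed sign.

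Same-numbered libraries did not deviate together (r from -0.078 to 0.08), so the replicate numbers were not read as pairs. With the replicate block, 19 members were called lower and 4 higher in the libraries labelled hPRM1 against the empty vector, 0 and 0 with hPRM2 (TALDO1 at adjusted p = 0.052), and 11 and 4 between the protamine labels. Over all genes tested, the block called 62.9% lower and 13.1% higher, 0.0609% and 0.373%, and 34.2% and 15.3%, in the same order. The estimated depth of the hPRM2 libraries limits what can be said of members under a few RPKM.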
